A study of Homo sapiens with 16 samples.

Results

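GDF15, STC2 and ADM2 encode hormones that stressed cells release, and their transcripts were followed in LNCaP, a line of human prostate cancer cells, with and without p53 and with and without an inhibitor of the kinase GCN2. These 3 genes, listed by name, were taken from the 62754 genes of the count table, and all 3 were among the 18549 genes that passed the filter on low counts. GCN2iB lowered STC2 and ADM2 in both genotypes and left GDF15 without a called change in either, while loss of p53 went with lower GDF15 and with higher STC2 and ADM2 under vehicle. RNA from 16 samples was sequenced in paired ends, 4 libraries in each of 4 groups.

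The groups were wild-type (WT) LNCaP given vehicle (DMSO), WT given 5 µM GCN2iB, LNCaP with p53 knocked out by CRISPR (p53 KO) given vehicle, and p53 KO given 5 µM GCN2iB. In every group 350000 cells were plated per well and treated for 48 h. All groups grew in medium with serum, and the labels describe no depletion of amino acids. It is not stated if the knockout line is 1 clone or a pool, nor if the 4 libraries of a group came from separate experiments. The p-values therefore measure the spread between these libraries, which may be technical, and a difference between the genotypes cannot be told apart from one between the lines that carry them.

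GCN2 (gene EIF2AK4) senses uncharged tRNA and phosphorylates the initiation factor eIF2α, which slows most translation but favours that of the transcription factor ATF4. ATF4 in turn raises genes for amino acid supply and several secreted factors. GDF15, a distant member of the TGF-β family that acts on the brainstem receptor GFRAL, is known as a target of ATF4 and of its partner CHOP and also as a direct target of p53. STC2 (stanniocalcin-2) is a secreted glycoprotein that binds and inhibits the protease PAPP-A, and ADM2 (adrenomedullin-2, or intermedin) is a peptide of the calcitonin family that acts on the receptor CALCRL together with a RAMP protein. Both are known ATF4 targets.

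Total counts per library ranged from 17418072 to 39915685. CDKN1A, the cell cycle inhibitor p21 and a p53 target, checks the genotype labels and stood at 275 ± 21.1 CPM (counts scaled to the size of the library; mean ± SD, n = 4) in WT vehicle and 37.5 ± 3.73 in p53 KO vehicle. The luminal prostate markers summed to 7219 to 7423 CPM per library in WT vehicle and 6694 to 6810 in p53 KO vehicle, and to 6286 to 6493 and 5885 to 6274 with GCN2iB, and the part of this in the changes of the 3 genes was not tested. Markers of other cell types also moved with genotype: under vehicle the endothelial markers summed to 18.2 to 19.4 CPM in WT and 9.56 to 11.7 in p53 KO, and the immune markers to 0.125 to 0.304 and 0.741 to 1.75. The basal markers summed to 19.1 to 24.9 and 16.7 to 23.6 CPM, with 3 of 4 tested called higher in p53 KO (9.63% of all tested genes were), and the stromal to 23.9 to 29.7 and 21.0 to 23.97. With GCN2iB the endothelial sums were 18.99 to 23.8 CPM in WT and 12.1 to 13.2 in p53 KO and the immune sums 0.217 to 0.674 and 0.824 to 1.48. The 1 immune marker tested was called higher in p53 KO, by 4.88 on the log2 scale under vehicle and by 3.12 under GCN2iB. The part of these markers in the genotype differences was not tested. KRT5, TP63 and PTPRC were at 0 to 2 counts in every library, while other members of their lists were detected. The WT GCN2iB replicate 4 library stood apart on the first principal component (-18.26, against -33.61 to -31.47 in the other WT GCN2iB libraries), and values that touch it are given without it for GDF15, CDKN1A, IGFBP3 and PAM. On the second component p53 KO GCN2iB replicate 4 stood at -30.55, against -13.87 to -10.92 in the rest of its group. WT vehicle replicate 1 stood at 35.15 there, against 10.82 to 18.73 in the rest of its group.

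Where the genes lie, and the letters before their starts, are shown first because the members parted by genotype. GDF15 (ENSG00000130513) lies on chromosome 19 at 18374731 to 18389176 on the plus strand of GRCh38 in GENCODE 29, STC2 (ENSG00000113739) on chromosome 5 at 173314713 to 173329503 on the minus strand, and ADM2 (ENSG00000128165) on chromosome 22 at 50481556 to 50486440 on the plus strand. No exon of another annotated gene overlaps theirs. A microRNA gene, MIR3189, sits in an intron of GDF15 on the same strand. The 250 bases before each RefSeq start (GRCh38.p14), 5′ to 3′ on the strand of the gene, are chr19:18385908-18386157 for GDF15, chr5:173328415-173328664 for STC2 and chr22:50481293-50481542 for ADM2. The GENCODE spans of GDF15 and STC2 reach upstream of the RefSeq start and of the window, so other starts of these genes are not covered. Capitals mark the GC box (GGGCGG), the CCAAT box (CCAAT) and the TATA box (TATAAA) on either strand, none of which overlap each other here.
GDF15: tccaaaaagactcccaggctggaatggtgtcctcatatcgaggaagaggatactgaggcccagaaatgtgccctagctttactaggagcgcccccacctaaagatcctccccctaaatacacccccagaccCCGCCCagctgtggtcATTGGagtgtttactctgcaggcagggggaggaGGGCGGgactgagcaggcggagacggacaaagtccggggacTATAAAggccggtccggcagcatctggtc
STC2: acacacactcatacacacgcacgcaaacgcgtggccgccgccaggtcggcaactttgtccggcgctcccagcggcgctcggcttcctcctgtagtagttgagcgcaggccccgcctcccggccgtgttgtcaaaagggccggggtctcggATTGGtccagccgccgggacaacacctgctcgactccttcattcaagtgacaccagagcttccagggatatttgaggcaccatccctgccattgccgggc
ADM2: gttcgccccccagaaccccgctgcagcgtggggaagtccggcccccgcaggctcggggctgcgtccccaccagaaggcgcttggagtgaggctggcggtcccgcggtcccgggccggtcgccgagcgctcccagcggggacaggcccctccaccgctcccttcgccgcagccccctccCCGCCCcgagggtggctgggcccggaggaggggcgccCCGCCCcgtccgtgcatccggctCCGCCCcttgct

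The 3 promoters differed in make-up. That of GDF15 (58.4% G or C) held a TATA box whose first base is 29 bases before the start, a CCAAT box at -103 and GC boxes at -119 and -70. That of STC2 (63.6%) held a CCAAT box at -100 and neither of the other motifs, and that of ADM2 (78.8%) held GC boxes at -72, -35 and -12 and neither of the others. Among 35116 RefSeq promoters 42.6% held a GC box, 32% a CCAAT box and 10.7% a TATA box, so each of these is common. The element bound by C/EBP-ATF dimers (TGATGNAA, in 3.14% of promoters) was in none of the 3 windows on either strand, nor was the cyclic AMP response element TGACGTCA (1.65%). A shorter form of the latter, TGACG (21.2%), was also absent. This says only that these letters are not in these windows.

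Pairs of p53 half-site cores with no spacer were searched from 250 bases before to 50 bases after each start. Each half-site of the p53 consensus has a core made of a C, a pair of letters that are A or T, and a G. In the GDF15 window 1 such pair was found, with 3 mismatches outside the cores. It starts at base 29 after the start, at chr19:18386186-18386205 on the plus strand, with its cores in capitals.
GDF15 paired cores: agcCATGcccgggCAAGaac
Pairs as good were in 150 of the 35116 windows (0.427%). No pair was in the windows of STC2 or ADM2, nor in those of 5 of 6 known p53 targets searched alongside (CDKN1A, MDM2, PHLDA3, FDXR and BTG2), while that of SESN1 held a pair with 3 mismatches at -49. These matches describe letters and no binding was measured.

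GDF15 was the most abundant of the 3 transcripts. Divided by the joint length of its exons, it stood at 407 CPM per kb in WT vehicle, against 25.1 for STC2 and 16.1 for ADM2. The same order held in the other groups, with p53 KO GCN2iB at 154, 15.3 and 7.83 CPM per kb. Raw counts per library were 4226 to 44023 for GDF15, 1513 to 7706 for STC2 and 530 to 3752 for ADM2.

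**Figure D1:**
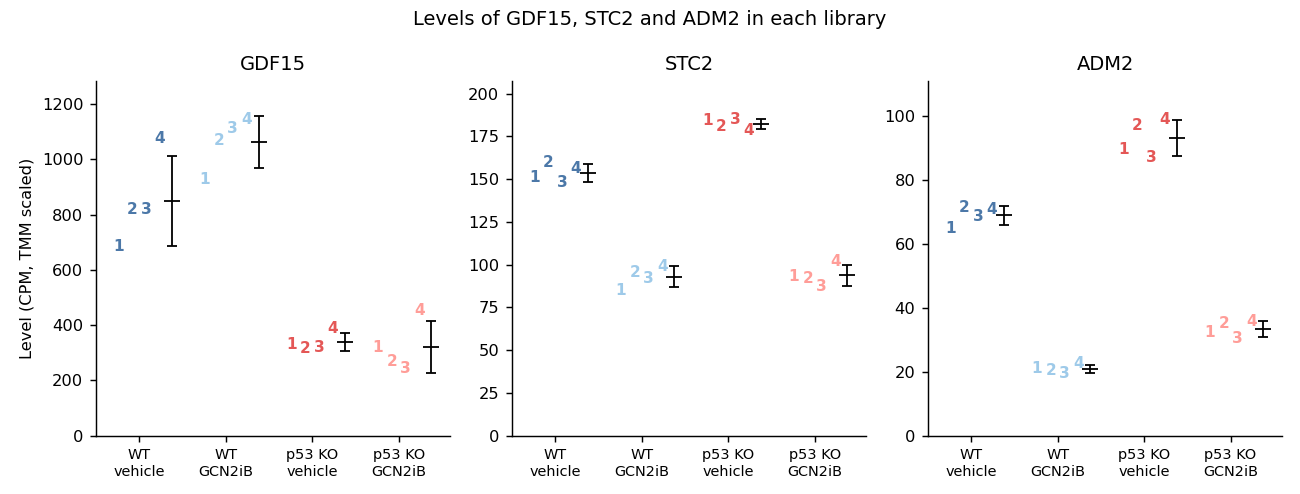
Level of GDF15, STC2 and ADM2 in CPM (vertical axes, from 0) in the 4 groups. Each number is 1 library, plotted by its replicate number, bars are means and error bars are SD over 4 libraries. GDF15 is split by genotype, STC2 and ADM2 are split by treatment.

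GDF15 followed the genotype. In WT vehicle its replicates 1 to 4 stood at 684, 818, 819 and 1074 CPM, and in p53 KO vehicle at 332, 316, 319.98 and 388 CPM. Under GCN2iB the WT libraries stood at 928, 1066, 1109.9 and 1145 CPM and the p53 KO libraries at 319, 267, 243 and 454 CPM. Every WT library was above every p53 KO library under both treatments, and the share of all genes without overlap was not counted. GDF15 was 2.5-fold lower in p53 KO than in WT under vehicle (log2 change -1.32, SE 0.17, adjusted p = 5.55e-05, edgeR quasi-likelihood test with Benjamini-Hochberg adjustment), where 12.1% of tested genes were called lower and 21.7% called in either direction. Under GCN2iB it was 3.31-fold lower (-1.73, SE 0.18, adjusted p = 4.85e-06 by the same test; -1.71 without WT GCN2iB replicate 4), where 11.2% were called lower and 23.9% in either direction. Among the log2 changes of the 18549 tested genes these were the 227th and the 133rd lowest.

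GCN2iB did not give a called change of GDF15 in either genotype in the fit with 1 term per group. In WT the group means were 849 ± 163 CPM with vehicle and 1062 ± 95.1 CPM with GCN2iB, and the groups overlapped, since the highest vehicle library exceeded 2 of the 4 treated ones. The log2 change was 0.32 (SE 0.17, adjusted p = 0.189 by edgeR), and it was 0.30 (adjusted p = 0.297) without WT GCN2iB replicate 4. With only the compared groups in the fit it was 0.34 (adjusted p = 0.0573, edgeR). With a block for the replicate number the rise was called, as given below. Of the tested genes 11.6% were called higher in this comparison. In p53 KO the means were 339 ± 33.6 and 321 ± 94.1 CPM and the log2 change was -0.08 (SE 0.17, adjusted p = 0.796 by edgeR), where 8.71% of tested genes were called lower and 11.4% higher. That value rested on single libraries: it was -0.29 (adjusted p = 0.153) without p53 KO GCN2iB replicate 4, whose 454 CPM was the highest of the group, and 0.03 without replicate 3. The difference between both responses was -0.40 on the log2 scale (SE 0.24, adjusted p = 0.644) and was -0.62 (adjusted p = 0.221) without p53 KO GCN2iB replicate 4, so a difference was not shown at this spread.

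The scatter of GDF15 between libraries was wider than that of the other two. Its coefficient of variation was 19.2% in WT vehicle and 29.3% in p53 KO GCN2iB, against at most 6.65% for STC2 and 7.4% for ADM2 in any group. The replicate 4 library had the highest GDF15 level in all 4 groups. Replicate 4 was also the highest in 3 groups for ADM2 and in 2 for STC2.

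STC2 followed the treatment. Its WT vehicle replicates 1 to 4 stood at 151, 159.6, 148 and 156 CPM and its WT GCN2iB replicates at 84.9, 95.6, 92.0 and 99.2 CPM. In p53 KO the vehicle libraries stood at 184, 181, 185 and 179 CPM and the GCN2iB libraries at 93.3, 92.1, 87.1 and 102 CPM. No treated library of either genotype reached the lowest vehicle library, and the share of all genes of which this holds was not counted. STC2 fell by 0.73 on the log2 scale in WT (1.65-fold, SE 0.06, adjusted p = 1.42e-08, edgeR with Benjamini-Hochberg adjustment), where 13.6% of tested genes were called lower and 25.2% in either direction. In p53 KO it fell by 0.96 (1.94-fold, SE 0.06, adjusted p = 1.85e-10), where 8.71% were called lower and 20.1% in either direction.

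The genotypes differed in STC2 under vehicle and not detectably under GCN2iB. With vehicle the p53 KO libraries were all above the WT libraries, by 0.25 on the log2 scale (1.19-fold, SE 0.06, adjusted p = 0.00409 by edgeR), where 9.63% of tested genes were called higher. With GCN2iB the ranges 84.9 to 99.2 and 87.1 to 102 CPM overlapped, and the log2 difference was 0.01 (SE 0.06, adjusted p = 0.909). The response to GCN2iB was 0.23 more negative in p53 KO (SE 0.08), which did not pass adjustment over all genes (adjusted p = 0.395, edgeR).

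ADM2 carried both differences at once. Its WT vehicle replicates stood at 64.9, 71.5, 68.5 and 70.8 CPM and its WT GCN2iB replicates at 20.95, 20.3, 19.5 and 22.6 CPM. In p53 KO the vehicle libraries stood at 89.7, 96.9, 87.0 and 99.1 CPM and the GCN2iB libraries at 32.4, 35.2, 30.5 and 35.8 CPM. The 4 groups did not overlap in any pair, and the share of all genes without overlap was not counted for this or the other members. GCN2iB lowered ADM2 by 3.31-fold in WT (log2 change -1.73, SE 0.07, adjusted p = 5.06e-14, edgeR) and by 2.78-fold in p53 KO (-1.47, SE 0.07, adjusted p = 1.06e-12), where 13.6% and 8.71% of tested genes were called lower. Those changes of ADM2 were the 29th and the 36th lowest on the log2 scale of the 18549 tested genes, against the 469th and the 186th for STC2.

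Loss of p53 went with more ADM2 under either treatment. The gain was 1.35-fold under vehicle (log2 change 0.43, SE 0.07, adjusted p = 3.31e-05, edgeR) and 1.61-fold under GCN2iB (0.69, SE 0.07, adjusted p = 1.34e-07), where 9.63% and 12.7% of tested genes were called higher. In CPM the gain was 24.2 under vehicle and 12.6 under GCN2iB, so the order of the gains differed between the ratio and the absolute scale. The ratio under GCN2iB exceeded that under vehicle by 0.25 on the log2 scale (SE 0.10), which did not pass adjustment (adjusted p = 0.415, edgeR). Only 0.00539% of tested genes, the single gene SESN2, were called for this difference between responses. That count was 34 without WT GCN2iB replicate 1, 10 without p53 KO GCN2iB replicate 4, 5 without WT GCN2iB replicate 4 and 38 by the DESeq2 test.

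**Figure D2:**
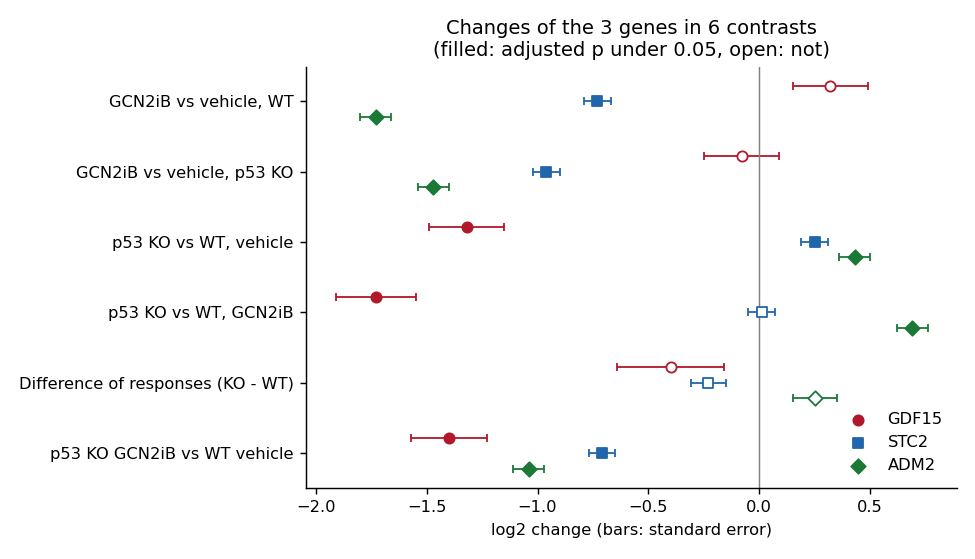
Log2 change of GDF15, STC2 and ADM2 in 6 comparisons (rows) on a linear log2 axis (horizontal), with bars of 1 SE. Filled points passed an adjusted p of 0.05 and open points did not. GDF15 is far below 0 in both genotype comparisons. For treatment it is at 0.32 in WT and -0.08 in p53 KO, both open points. ADM2 is below 0 for treatment and above 0 for genotype.

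Ordered by level, STC2 and ADM2 gave the same sequence of groups and GDF15 another. GDF15 ran from WT GCN2iB (1062 CPM) and WT vehicle (849), neighbours not called apart in the fit with 1 term per group, to p53 KO vehicle (339) and p53 KO GCN2iB (321), also not called apart. STC2 ran from p53 KO vehicle (182 ± 2.98) through WT vehicle (154 ± 5.26) to p53 KO GCN2iB (93.7 ± 6.23) and WT GCN2iB (92.9 ± 6.10), where the final pair did not differ beyond its spread. ADM2 ran from p53 KO vehicle (93.2 ± 5.73) through WT vehicle (68.9 ± 2.94) and p53 KO GCN2iB (33.5 ± 2.48) to WT GCN2iB (20.8 ± 1.30), with every step called. Between p53 KO vehicle and WT GCN2iB the difference was 4.47-fold for ADM2 (log2 difference 2.16, adjusted p = 3.84e-16, edgeR) and 0.97 on the log2 scale for STC2 (adjusted p = 1.78e-11), while GDF15 was 3.13-fold lower there (adjusted p = 3.32e-06). In that comparison 40.5% of tested genes were called, 20.5% as higher and 20.0% as lower.

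All 3 were lower in p53 KO with GCN2iB than in WT vehicle. Against WT vehicle, p53 KO with GCN2iB had 2.64-fold less GDF15 (log2 change -1.40, adjusted p = 1.63e-05, edgeR with Benjamini-Hochberg adjustment), 1.64-fold less STC2 (-0.71, adjusted p = 3.64e-09) and 2.06-fold less ADM2 (-1.04, adjusted p = 6.46e-11). In this comparison 37.0% of tested genes were called, and 18.5% of tested genes were lower. With these counts from cultures in bulk, fewer cells that make a transcript and less RNA in each cell cannot be told apart.

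The members did not move as a set. Over the 16 libraries, which share the 4 group means, the log2 levels of STC2 and ADM2 had Pearson r = 0.95, while GDF15 had r = -0.16 with STC2 and r = -0.37 with ADM2. After the group means were removed, the residuals of GDF15 had r = 0.69 with STC2 and 0.54 with ADM2, and those of STC2 and ADM2 had r = 0.45. These are descriptions over libraries that share depth and scaling.

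The genes whose levels over the 16 libraries were most like those of each member were taken from 10294 genes with a mean of at least 5 CPM, by Pearson r of log2 CPM. For GDF15 they included SLC16A3 (a lactate exporter, r = 0.987), BBC3 (the BH3-only protein PUMA, 0.98), RPS27L (a ribosomal protein paralog, 0.98) and PHLDA3 (a pleckstrin-homology protein, 0.979). For STC2 they were STYXL2 (0.974), PLPP6 (a lipid phosphatase, 0.973), YARS1 (tyrosyl-tRNA synthetase, 0.969), AJUBA (a LIM-domain protein, 0.969) and CHAC1 (a glutathione-degrading enzyme, 0.968). For ADM2 they were CARS1 (cysteinyl-tRNA synthetase, 0.994), SLC7A5 (an amino acid transporter, 0.989), PCK2 (mitochondrial phosphoenolpyruvate carboxykinase, 0.983), ATF4 itself (0.981) and SLC6A9 (a glycine transporter, 0.98). Between libraries of the same group the residual r was 0.723 to 0.863 for the 5 genes of GDF15, 0.315 to 0.539 for those of STC2 and 0.441 to 0.729 for those of ADM2.

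**Figure D3:**
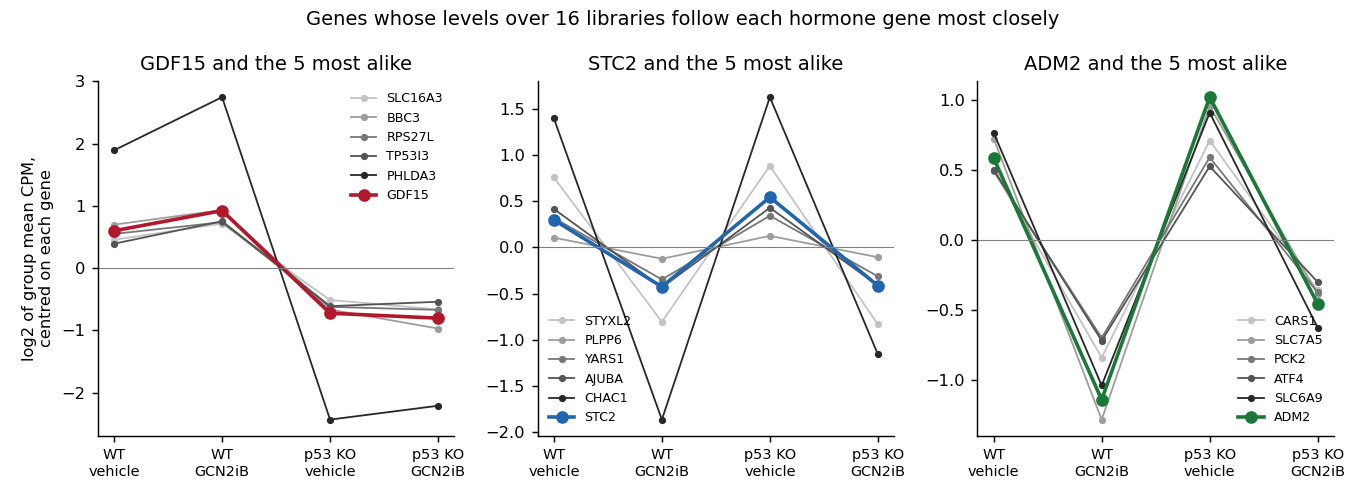
Group means as log2 CPM, centred on each gene, for each member (thick line) and the 5 genes most like it. Lines only join the 4 groups to make the profiles visible. The profiles of GDF15 step down between the genotypes, and those of STC2 and ADM2 step down with GCN2iB in each genotype.

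The regulators themselves were measured too. ATF4 transcript fell from 496 ± 40.2 to 213 ± 11.7 CPM with GCN2iB in WT (log2 change -1.22, SE 0.06, adjusted p = 5.61e-12, edgeR) and from 504 ± 33.5 to 284 ± 6.10 CPM in p53 KO (-0.83, adjusted p = 6.28e-09). ATF4 did not differ detectably between genotypes under vehicle (0.02, adjusted p = 0.853) and was 1.34-fold higher in p53 KO under GCN2iB (adjusted p = 3.99e-05). EIF2AK4, the gene of GCN2, fell with GCN2iB in WT (-0.30, adjusted p = 0.00629) and stood at 129 and 117 CPM in p53 KO. DDIT3, which encodes CHOP, fell in WT (-0.93) and in p53 KO (-0.95) and was higher in p53 KO than in WT under vehicle (0.86, adjusted p = 1.03e-05). ATF3, a stress-induced transcription factor, was likewise lower with GCN2iB and 1.59-fold higher in p53 KO under vehicle. Of 9 transcription factors linked to GDF15, 1 rose and 4 fell with GCN2iB in WT, and likewise 1 rose and 4 fell in p53 KO. Over all tested genes 11.6% rose and 13.6% fell in WT, and 11.4% and 8.71% in p53 KO. JUN, an AP-1 subunit, rose in both (0.52 and 0.29), whereas CEBPB fell in both (-1.01 and -0.67). In p53 KO against WT, 3 of the 9 factors rose under vehicle and 5 under GCN2iB, and 0 fell in either (edgeR). Over all tested genes 9.63% rose and 12.1% fell under vehicle, and 12.7% and 11.2% under GCN2iB.

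The ATF4 program inside the cell, a list of 22 genes for amino acid synthesis, transport and stress control, was lower with GCN2iB in 19 genes in WT and in 19 in p53 KO, with 1 (STBD1, 0.72) and 0 higher, where 13.6% and 8.71% of all genes were lower. Its median log2 change was -0.765 in WT and -0.715 in p53 KO, against -0.027 and -0.013 over all tested genes. STC2 (-0.73 and -0.96) lay near that median in WT and below it in p53 KO, ADM2 (-1.73 and -1.47) lay well below it in both, while CHAC1 (-3.25 and -2.78) and SLC7A5 (-2 and -1.35) fell further than ADM2 in WT. PSAT1, an enzyme of serine synthesis, fell by 0.99 and by 0.80. In p53 KO against WT the same list had 7 higher and 1 lower under vehicle and 15 higher and 2 lower under GCN2iB. Of all tested genes 9.63% were higher and 12.1% lower under vehicle, and 12.7% and 11.2% under GCN2iB. The medians of the list were 0.10 and 0.31, against 0.006 and 0.025 over all genes. The count of 7 was 3 or 4 without WT vehicle replicate 1, 2 or 3 or p53 KO vehicle replicate 2, 3 or 4. ADM2 and STC2 lay above that median under vehicle, and STC2 below it under GCN2iB. The lower ones were DDIT4, an inhibitor of mTORC1, under vehicle (-0.38) and under GCN2iB (-0.85), and SESN2, another, under GCN2iB (-0.91).

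The list of 25 p53 targets inside the cell, 24 of them tested, was lower in p53 KO in 24 genes under vehicle and in 23 under GCN2iB, POLK (-0.14, adjusted p = 0.506, edgeR) being the exception, where 12.1% and 11.2% of all genes were lower. Its medians were -0.995 and -1.12, and GDF15 (-1.32 and -1.73) lay below both. PHLDA3 (-4.33 and -4.91) and SPATA18 (-3.74 and -3.35), a mitochondrial quality protein, were the lowest of those named under vehicle, CDKN1A fell by 2.87 and by 3.43 (-3.55 under GCN2iB without WT GCN2iB replicate 4), and MDM2, the ubiquitin ligase of p53, fell by 1.00 and by 1.18. With GCN2iB in WT 10 of the 24 were higher and 1 lower (SESN1, -0.27), with a median of 0.21, where 11.6% of all genes were higher and 13.6% lower. CDKN1A (0.76, or 0.86 without WT GCN2iB replicate 4), BAX (0.66), AEN (0.32) and PHLDA3 (0.85) were among those that rose. MDM2 (0.18, adjusted p = 0.148, edgeR) did not pass, like GDF15. In p53 KO 5 were higher and 1 lower (TNFRSF10B, -0.30), with a median of 0.095, where 11.4% were higher and 8.71% lower. CDKN1A had a log2 change of 0.20 there (adjusted p = 0.183), and the difference between its responses was -0.56 (adjusted p = 0.286). BAX (0.44), PPM1D (0.41), TRIAP1 (0.36), DDB2 (0.35) and AEN (0.22) were the 5 that rose.

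**Figure D4:**
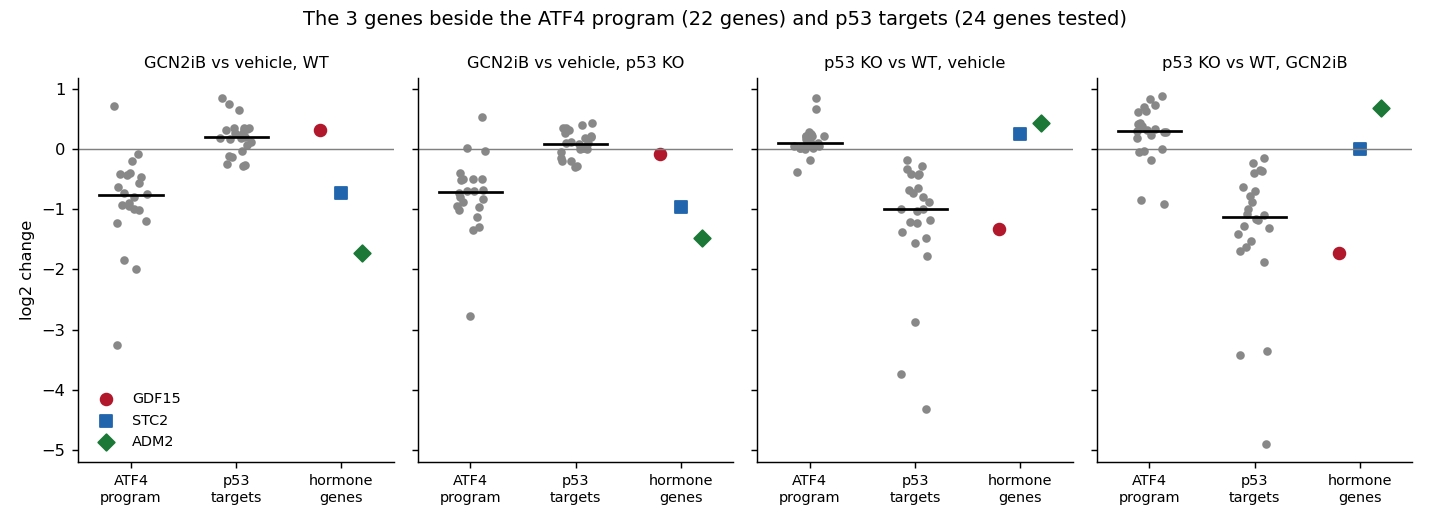
Log2 change of each tested gene of the ATF4 program (22) and of the p53 targets (24) in 4 comparisons, with list medians and with GDF15, STC2 and ADM2 marked. ADM2 and STC2 lie within the range of the ATF4 program under GCN2iB, and GDF15 lies within that of the p53 targets in p53 KO.

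Among close relatives 6 of 14 paralogs were tested. In p53 KO against WT, 2 of the 6 were called under vehicle and 3 under GCN2iB, where 21.7% and 23.9% of all tested genes were. With GCN2iB 1 of these fell in WT (13.6% of all genes did), INHBE, at a few counts per library, and none was called in p53 KO. STC1, the paralog of STC2, was lower in p53 KO under vehicle (2.27-fold, log2 change -1.18, SE 0.18, adjusted p = 0.000108, edgeR) and under GCN2iB (-0.75, adjusted p = 0.00546), where STC2 was higher or level. STC1 stood at 12.4 CPM in WT vehicle and 12.9 with GCN2iB (0.06, adjusted p = 0.852), with no called change. In p53 KO its log2 change with GCN2iB was 0.49 (adjusted p = 0.0775), or 0.79 (adjusted p = 0.000489) without p53 KO vehicle replicate 1, whose 8.39 CPM exceeded the 3.53 to 5.05 of the others. With all libraries kept it was also called with no count filter (adjusted p = 0.00195), by the DESeq2 test (0.0293) and by limma voom (0.043). ADM, the paralog of ADM2, stood at 0.263 to 0.749 CPM in every library and was called in none of the comparisons. INHBB, an activin subunit, was lower in p53 KO (-0.51 and -0.45). GDF9, an oocyte factor, was the 1 paralog called higher, in p53 KO under GCN2iB (0.35, adjusted p = 0.0486), and lost the call in most alternatives, for example without WT GCN2iB replicate 2 (0.24, adjusted p = 0.216).

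The receptors and the processing enzymes of these hormones were followed next. GFRAL, the receptor of GDF15, had 0 counts in all 16 libraries, and its coreceptor RET stood at 0.403 to 0.520 CPM in the group means. For ADM2, CALCRL stood at 1.94 CPM in WT vehicle and RAMP1 at 54.7, while RAMP2 and RAMP3 were not tested for want of counts. RAMP1 was the one of 3 tested receptor genes to change. It was higher with GCN2iB in WT (0.38, adjusted p = 0.0232, edgeR) and in p53 KO (0.50, adjusted p = 0.005), where 11.6% and 11.4% of all tested genes were higher. In WT that call was lost without WT vehicle replicate 1 (0.30, adjusted p = 0.0639) or replicate 2 (0.37, adjusted p = 0.0526). Of 10 processing enzymes and binding partners 6 were tested, and 3 of the 6 were called with GCN2iB in WT, 3 between genotypes under vehicle and 3 under GCN2iB, where 25.2%, 21.7% and 23.9% of all genes were. FURIN, a proprotein convertase, stood at 81.5 to 89.2 CPM in the group means with no called change. PCSK6 and PAM, the enzyme that amidates peptides such as ADM2, fell with GCN2iB in WT (-0.24 and -0.51), and PCSK7 rose (0.26). None was called in p53 KO with GCN2iB. PCSK6 (-0.36) and PAM (-0.47) were also lower in p53 KO under vehicle, and HMOX1, which encodes the haem oxygenase that STC2 binds, was higher (0.61 under vehicle and 0.82 under GCN2iB). PCSK6 (-0.25) and PCSK7 (-0.26) were the ones lower under GCN2iB. HMOX1 and PCSK6 kept their calls between genotypes in all 16 fits with 1 library left out. The calls of PAM and PCSK7 and the fall of PCSK6 in WT were near the threshold. Without WT vehicle replicate 3 PAM was at -0.34 with GCN2iB in WT (adjusted p = 0.176, edgeR; -0.39 and 0.127 without WT GCN2iB replicate 4) and at -0.33 between genotypes under vehicle (adjusted p = 0.213), and PCSK6 was at -0.19 with GCN2iB in WT (adjusted p = 0.0626). Without WT GCN2iB replicate 2 PCSK7 was at 0.21 with GCN2iB in WT (adjusted p = 0.0788) and at -0.21 between genotypes under GCN2iB (adjusted p = 0.0829).

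**Figure D5:**
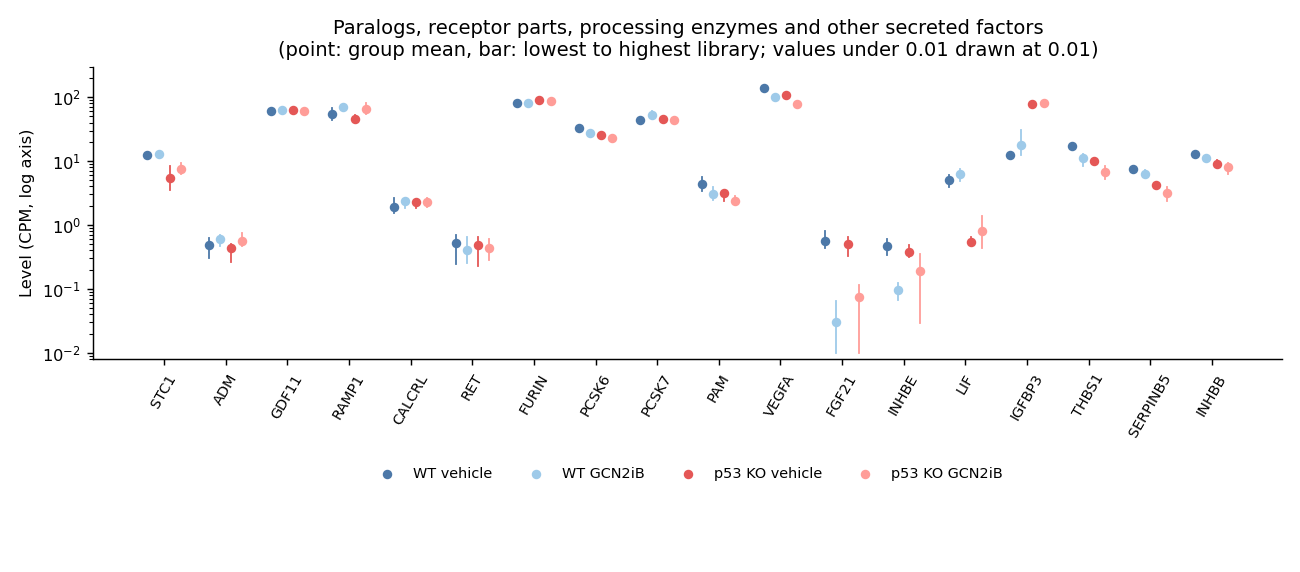
Group means of paralogs, receptors, processing enzymes and other secreted factors in CPM on a log axis, with bars from the lowest to the highest library and values under 0.01 CPM drawn at 0.01. LIF falls and IGFBP3 rises in both p53 KO groups, and FGF21 is near 0 in both GCN2iB groups.

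Among other secreted factors, those linked to ATF4 fell with GCN2iB where they were called, and those linked to p53 were mostly lower in p53 KO. Of 10 further factors linked to ATF4, 5 were tested, and 3 fell in WT and 2 in p53 KO with GCN2iB, with none higher, where 13.6% and 8.71% of all genes fell. By the DESeq2 test 1 of the 3 in WT was called, VEGFA, since FGF21 and INHBE had no adjusted p there. VEGFA, an angiogenic factor, fell by 0.45 and by 0.47 (adjusted p = 1.52e-05 and 9.95e-06, edgeR). FGF21 fell in both and rested on few counts, 15 to 17 per library in WT vehicle and 0 to 2 in WT GCN2iB. In p53 KO against WT, 2 of the 5 were lower and none higher under vehicle and under GCN2iB, where 12.1% and 11.2% of all genes were lower. They were VEGFA (-0.32 and -0.35) and LIF (-3.22 and -2.95), a cytokine of the interleukin-6 family that p53 is also known to drive. STC2 and ADM2 were higher in the first of these comparisons. Of 8 factors linked to p53, 5 were tested, and 3 were lower and 1 higher in p53 KO under each treatment, where 12.1% and 11.2% of all genes were lower and 9.63% and 12.7% higher. THBS1 (-0.76 and -0.72), SERPINB5 (-0.81 and -1.01) and INHBB fell, whereas IGFBP3, a binding protein of insulin-like growth factors, rose from 12.5 to 78.5 CPM under vehicle (2.65, adjusted p = 3.64e-07) and was 2.20 higher under GCN2iB (2.57 without WT GCN2iB replicate 4, where it stood at 30.1 CPM). THBS1 was the one of the 5 called with GCN2iB, lower in WT (-0.62) and in p53 KO (-0.59), where 13.6% and 8.71% of all genes were lower. GDF15 was called lower in p53 KO, as were LIF, THBS1 and VEGFA, and had no called fall with GCN2iB.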

How the data were processed

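Read counts per gene (raw, not normalized) were deposited by the authors for 16 libraries. The tools listed in the submitters' processing notes, with neither versions nor roles, are featureCounts, HISAT2, DESeq2 and Trim Galore, and the build is GRCh38. For the annotation release and the strand setting: not given in the sources used here. Reads of overlapping genes on opposite strands may therefore not be separable.

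The tests used edgeR 4.0.16 in R 4.3.3 (filterByExpr, TMM scaling, robust quasi-likelihood fit with 1 term per group over all 16 libraries, two-sided tests, Benjamini-Hochberg adjustment over 18549 genes, threshold 0.05). Of 62754 genes, 42343 had a symbol and 58261 a position in GENCODE 29. Tested genes held at least 99.906% of the counts of each library. CPM use TMM-scaled totals, and SE is the log2 change divided by the root of F. CPM per kb divide by the summed length of merged exons. Plots used matplotlib 3.10.9.

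Members and gene lists were chosen with earlier results of these data known. Named are the 3 members, ATF4, CHAC1, CDKN1A, MDM2, EIF2AK4, DDIT3, ATF3, STC1 and ADM, up to 4 called members of each list with the smallest adjusted p, and the 5 genes most like each member. Of these the text gives the ones that bear on the members; others named were chosen after their values were seen. Some genes of the rule and lists are not reported here. Promoters came from RefSeq tables, which matched all 3 members.

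Alternatives were DESeq2 1.42.0 size factors and test, library totals, no count filter, limma 3.58.1 voom, a fit of only the groups compared, a block for the replicate number, each library left out, and, chosen after seeing the data, both GCN2iB replicate 4 libraries left out. The scripts were tested on simulated data.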

Additional observations from a re-analysis of the deposited data

Results flagged for a closer look

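Among 172 groups of 4 libraries examined, 13 held a library whose gap to its nearest neighbour, as a share of the range of the group, exceeded the 95% limit of Dixon's test, which chance gives in about 5% of groups. None of the 12 groups of GDF15, STC2 and ADM2 did. Among the replicate 4 libraries, CDKN1A stood at 375 CPM in WT GCN2iB (others 483 to 501) and IGFBP3 at 30.1 CPM there (12.6 to 14.5), in the library that also stood apart on the first principal component. CDKN1A stood at 43.1 CPM in p53 KO vehicle replicate 4 (35.4 to 36.1), and HMOX1 at 20.6 CPM in that library. In p53 KO GCN2iB replicate 4, the library with the highest GDF15 of its group, CHAC1 stood at 4.28 CPM (2.99 to 3.17) and TRIAP1 at 85.6 CPM.

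GDF9 stood at 7.54 CPM in p53 KO GCN2iB replicate 3 and ADM at 0.263 CPM in p53 KO vehicle replicate 1. In WT vehicle replicate 1, FGF21 was high at 0.81 CPM, and SESN2 (45.8 CPM) and JUN (97.3 CPM) were low. JUN was also low in WT GCN2iB replicate 1, at 136 CPM. SLC7A5 was low in WT vehicle replicate 3, at 16 CPM.

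SESN2, an ATF4 and p53 target, was called for the difference between the GCN2iB responses of p53 KO and WT, at -0.74 on the log2 scale (SE 0.10, adjusted p = 0.00142, edgeR). It fell by 0.39 in WT and by 1.13 in p53 KO.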

How the results depend on the processing

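In the 6 comparisons recomputed (p53 KO vehicle against WT GCN2iB was not), the called changes of GDF15, STC2 and ADM2 kept their direction and call under every alternative run, each library left out included. The GDF15 response in WT became called with a replicate block (0.34, adjusted p = 0.0466) and ranged from 0.24 to 0.47 with 1 library left out (adjusted p 0.0522 to 0.383). In p53 KO it ranged from -0.29 to 0.03. The STC2 difference between genotypes under GCN2iB, near 0, turned to -0.0056 with DESeq2 size factors, -0.01 with no count filter, -0.0078 with the compared groups alone and -0.0047 with the DESeq2 test, and ranged from -0.05 to 0.02 with 1 library left out. Genes called for the difference between responses numbered 1, against 2 with DESeq2 size factors, 4 with library totals, 47 with no count filter, 61 with a replicate block, 38 with the DESeq2 test, 6 without both GCN2iB replicate 4 libraries, and 1 to 34 with 1 library left out. Signs of uncalled values also turned for ATF4 between genotypes under vehicle (-0.04 to 0.06 with 1 library left out), MDM2 with GCN2iB in p53 KO (-0.05 to 0.08, and 0.08 without both GCN2iB replicate 4 libraries) and EIF2AK4 between genotypes under GCN2iB (-0.0055 to 0.15). Causes were not tested. The labels name no pairing, so the numbers were not taken as pairs. Same-numbered libraries had a median residual r of 0.0366, against -0.0107 for other pairs between groups, and 5 of 24 exceeded 0.1. However, 13 of 16 libraries correlated best with their own number. How often numbers without meaning would give this was not tested. The replicate block also called CHAC1 between genotypes under vehicle (0.22, adjusted p = 0.0307), MDM2 with GCN2iB in WT (0.17, adjusted p = 0.0141; also with the compared groups alone, 0.0375, and without both GCN2iB replicate 4 libraries, 0.0347), and, with GCN2iB in p53 KO, STC1 (0.50, adjusted p = 0.00935) and EIF2AK4 (-0.15, adjusted p = 0.048).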

Other observations

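These values were chosen after they were seen. MIR3189, whose gene lies in an intron of GDF15 on the same strand (chromosome 19, 18386562 to 18386634, GRCh38), had 6 to 13 counts per library in WT vehicle, 11 to 23 in WT GCN2iB, 3 to 7 in p53 KO vehicle and 1 to 5 in p53 KO GCN2iB. It was lower in p53 KO under vehicle (log2 change -1.32, adjusted p = 0.0381, edgeR) and under GCN2iB (-2.01, adjusted p = 0.00145), next to -1.32 and -1.73 for GDF15. The counts do not separate unspliced GDF15 transcript from the microRNA precursor.

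MIOX, an inositol oxygenase gene that begins 343 bases after the end of ADM2 on the same strand (chromosome 22, 50486784 to 50490648), had 3 to 14 counts per library in WT vehicle, 2 to 5 in WT GCN2iB, 13 to 26 in p53 KO vehicle and 1 to 9 in p53 KO GCN2iB. It was lower with GCN2iB in WT (-1.50, adjusted p = 0.022, edgeR) and in p53 KO (-1.85, adjusted p = 0.00266), next to -1.73 and -1.47 for ADM2.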
